A study of Mus musculus with 24 samples.

Results

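*Irf8*, *Spib*, *Siglech*, *Pld4* and *Cysltr1* are 5 of the 55487 genes listed for 24 QuantSeq libraries of mouse lymphoid progenitors, and all 5 are known for high expression in plasmacytoid dendritic cells (pDCs). They were picked by symbol, with values of these libraries already known, and the rule does not record which values led to the choice. Every comparison was therefore counted as used in choosing them, and their levels are given here as a description, without tests. In LPs, *Spib* stood at or under the floor of 3 reads in every sgCbfb library of both experiments, while *Pld4* and *Cysltr1* were higher with sgCbfb than with sgControl in both. *Irf8* was 3.14-fold lower with sgCbfb in LPs of the first experiment, but its sgCbfb and sgControl libraries overlapped in the second. *Siglech* never exceeded 12 reads in a library.

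All cells were Cas9-LPs, lymphoid progenitor (LP) lines grown from fetal liver of *Ebf1*-deficient mice that carry Cas9 at the Rosa26 locus, so that loss of *Ebf1*, a transcription factor needed to enter the B lineage, and the Cas9 knock-in are shared by the controls. LPs were kept on OP9 stroma, which the study counts as no Notch stimulation, and Phase 1 cells were taken from OP9-DLL4 stroma, which presents the Notch ligand DLL4. Retroviral sgRNAs, marked by human NGFR, targeted *Cbfb* (sgCbfb), *Ctcf* (sgCTCF), *Med12* (sgMed12) or luciferase (sgControl), and hNGFR+CD45+ cells were sorted 5 days after transduction. Both stages, each with sgControl or sgCbfb, make up the first experiment, and the second has LPs with sgControl, sgCbfb, sgCTCF or sgMed12, and each of the 8 groups has 3 libraries. The cells are lines edited by pooled sgRNAs, so a group can mix edited and unedited cells. CBFβ is the shared partner of the RUNX transcription factors, CTCF organises chromatin loops, and MED12 belongs to the kinase module of Mediator.

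pDCs are dendritic cells that sense viral nucleic acids in endosomes through the receptors TLR7 and TLR9 and answer with large amounts of type I interferon. They develop under Flt3 ligand from both lymphoid and myeloid progenitors, and the E protein TCF4 (E2-2), helped by SPIB, BCL11A, RUNX2 and IRF8, holds their identity. In the thymus and in cultures of lymphoid progenitors, loss of Notch signals is known to favour dendritic and myeloid fates over the T lineage. Of the 5 genes, *Irf8* and *Spib* encode transcription factors, *Siglech* and *Cysltr1* cell-surface receptors, and *Pld4* an endolysosomal nuclease.

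Gene reads per library ranged from 1363263 to 1743319 (first experiment) and from 3354483 to 4326782 (second experiment). Levels are CPM, read counts divided by the library total and set to a common scale. A floor of 3 reads per library was used, worth 1.72 to 2.20 CPM in the shallower first experiment and 0.693 to 0.894 CPM in the second. Such limits cover counting error only. Mitochondrial genes took 8.44% to 13.66% of the reads in sgMed12 libraries and at most 8.15% elsewhere. Replicate 3 of sgControl Phase 1 cells and replicate 2 of sgMed12 stood farther from the other replicates of their groups than any other library did. The labels do not say whether replicates were separate cultures, although the study's methods call them biologically independent. In bulk RNA, fewer cells that express a gene and less RNA per cell cannot be told apart.

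The targeted transcripts were read first. *Cbfb* was 86.5 ± 9.3 CPM (SD, n = 3) in sgControl LPs and 40.2 ± 5.18 CPM in sgCbfb LPs of the first experiment, a limma log2 fold change of -1.09 (SE 0.22, adjusted P = 0.0055), and 114.3 ± 8.37 against 48.4 ± 6.92 CPM in the second (log2 fold change -1.23, adjusted P = 4.3e-06). Phase 1 cells had 66.5 ± 19.2 CPM (sgControl) and 53.9 ± 9.69 CPM (sgCbfb) of it, which did not pass the limma test (adjusted P = 0.59). *Ctcf* was 390.97 ± 30.7 CPM with sgControl and 305.7 ± 29.96 CPM with sgCTCF (limma, adjusted P = 0.021, under the fold threshold), and *Med12* 5.14 ± 1.26 and 7.01 ± 3.38 CPM with sgControl and sgMed12 (limma, adjusted P = 0.66). QuantSeq reads the 3′ end of each mRNA, and small deletions made by Cas9 elsewhere in a gene need not lower it, so these values check the labels only in part. At the protein level, the study ran immunoblots for CBFβ, CTCF and MED12 in hNGFR+ Cas9-LPs 3 days after transduction. Its text reports loss of CBFβ, and the title of that figure also speaks of CTCF and MED12 depletion. As for the cell type, *Tcf4* and *Bst2* were read in every group, whereas *Klk1* and *Cd209d* were at 0 in all 24 libraries and *Lag3* and *Upb1* never exceeded a mean of 0.382 CPM. Other genes listed for pDCs were read in every group as well, with means of 1285 to 2239 CPM for *Plac8* and of 79.5 to 123.8 CPM for *Ptprs*. *Siglech*, the usual surface mark of mouse pDCs, was close to the floor. Markers of pDCs were thus in part read and in part absent. The 5 genes are treated as a group of genes, not as the profile of pDCs in these cultures.

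The stretches before the transcription starts of these genes are shown because CBFβ acts through RUNX factors, whose core motif can be looked for in them. The study itself left RUNX1 sites at promoters out, citing reports that these are only weakly tied to target genes. For 4 of the 5, RefSeq (GRCm38.p6) gave the 250 bases before the start, printed 5′ to 3′ on the strand of the gene, with motif matches in capitals. *Irf8* lies on the plus strand (chr8:120736108-120736357, the first of 2 starts), *Spib* on the minus strand (chr7:44532072-44532321), and *Siglech* (chr7:55767934-55768183) and *Pld4* (chr12:112760405-112760654) on the plus strand.
Irf8: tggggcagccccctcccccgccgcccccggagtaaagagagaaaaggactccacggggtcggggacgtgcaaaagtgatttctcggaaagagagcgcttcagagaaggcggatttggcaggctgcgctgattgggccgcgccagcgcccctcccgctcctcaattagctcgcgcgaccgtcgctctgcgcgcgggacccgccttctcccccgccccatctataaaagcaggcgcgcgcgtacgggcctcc
Spib: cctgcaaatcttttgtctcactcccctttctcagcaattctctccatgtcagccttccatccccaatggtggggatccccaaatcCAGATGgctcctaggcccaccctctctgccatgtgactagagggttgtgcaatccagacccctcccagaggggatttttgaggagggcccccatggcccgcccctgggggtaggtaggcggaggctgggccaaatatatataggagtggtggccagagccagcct
Siglech: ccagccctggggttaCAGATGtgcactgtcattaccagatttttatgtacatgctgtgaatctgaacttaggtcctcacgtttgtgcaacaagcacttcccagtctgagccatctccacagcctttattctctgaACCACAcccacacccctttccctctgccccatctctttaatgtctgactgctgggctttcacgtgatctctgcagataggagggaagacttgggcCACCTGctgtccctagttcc
Pld4: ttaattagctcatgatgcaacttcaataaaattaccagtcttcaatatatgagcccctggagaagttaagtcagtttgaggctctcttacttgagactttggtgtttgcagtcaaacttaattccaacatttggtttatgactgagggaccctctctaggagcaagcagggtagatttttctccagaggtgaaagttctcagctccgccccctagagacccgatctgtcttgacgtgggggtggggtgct
Motifs of 4 kinds were searched on both strands, only in the letters given here, so other forms of a motif were not looked for. The RUNX core TGTGGT was in 14.0% of 32851 promoter stretches of this length, GAGGAA, bound by ETS factors of the PU.1 and Spi-B type, in 23.3%, the interferon response type, in which any 2 bases stand between a pair of GAAA, in 2.98%, and the E-box CAGNTG in 44.8%. The stretch of *Siglech* held 1 RUNX match on the opposite strand, 115 to 110 bases before the start (printed as ACCACA), and E-boxes 235 to 230 and 20 to 15 bases before it. *Spib* held 1 E-box, 165 to 160 bases before the start. No motif overlapped another, and the printed stretch of *Irf8* and that of *Pld4* held none of the 4. The stretch before the other *Irf8* start (chr8:120738389-120738638), not printed, held 1 E-box, 205 to 200 bases before it. A match is a sequence of letters, not a shown binding site.

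*Irf8* encodes interferon regulatory factor 8, which dendritic cells and monocytes need to develop. It lies at chr8:120736358-120756694 on the plus strand of GRCm38 (GENCODE M21, ENSMUSG00000041515), with up to 9 exons in a transcript. In the first experiment, the sgControl LPs had 84.4, 92.3 and 64.9 CPM and the sgCbfb LPs 19.0, 25.8 and 32.1 CPM. Each sgCbfb LP library was below each sgControl LP library, and the log2 ratio of the means was -1.65 ± 0.45 (SD carried from the libraries, n = 3 and 3), 3.14-fold lower. Phase 1 cells had 59.996, 63.9 and 62.4 CPM with sgControl and 77.2, 64.1 and 52.4 CPM with sgCbfb. These groups overlapped, with means of 62.1 ± 1.95 and 64.6 ± 12.4 CPM. Compared by stage, sgCbfb Phase 1 cells were 2.52-fold above sgCbfb LPs with no overlap (log2 ratio 1.33 ± 0.46), and sgControl Phase 1 cells were 1.30-fold below sgControl LPs, also apart.

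In the second experiment, *Irf8* was at 73.3, 100.7 and 68.4 CPM in sgControl LPs and at 92.1, 63.0 and 42.6 CPM in sgCbfb LPs. The sgCbfb libraries spread over both sides of the sgControl mean, and the log2 ratio of -0.29 ± 0.63 was smaller than its SD. The lower *Irf8* in sgCbfb LPs was therefore seen in 1 of the 2 experiments, which differ in depth and were scaled in separate tables, so the difference between them was not tested. The sgCTCF libraries had 45.9, 48.2 and 38.1 CPM and the sgMed12 libraries 34.5, 44.2 and 47.7 CPM. All 6 were below all 3 sgControl libraries, 1.83-fold for sgCTCF (log2 ratio -0.88 ± 0.36) and 1.92-fold for sgMed12 (-0.94 ± 0.39).

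*Spib* encodes Spi-B, an ETS factor close to PU.1 that pDCs and B cells express. It lies at chr7:44525993-44532071 on the minus strand (ENSMUSG00000008193), with up to 6 exons in a transcript. In the first experiment, sgControl LPs had 14.8, 4.33 and 5.14 CPM (25, 7 and 8 reads) and sgCbfb LPs 0, 0 and 1.43 CPM (0, 0 and 2 reads). The sgCbfb libraries were at or under the floor, so their mean was at least 4.09-fold lower. The size of this bound leans on replicate 1 of sgControl, which holds most of the group's reads: on the log2 scale it ranged from -2.32 to -1.25 with single libraries left out, and was smallest without that one. Phase 1 cells had 12.7, 19.999 and 15.4 CPM with sgControl and 5.19, 0.628 and 0 CPM with sgCbfb. The groups were apart, 8.27-fold by their means (log2 ratio -3.05 ± 2.13), with 8, 1 and 0 reads in the sgCbfb libraries behind the wide SD.

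In the deeper second experiment, *Spib* was again lower with sgCbfb. The sgControl LPs had 10.3, 9.75 and 6.57 CPM and the sgCbfb LPs 0.894, 0 and 0.251 CPM (3, 0 and 1 reads), at least 10.9-fold lower. The sgCTCF libraries, at 28.7, 29.0 and 22.2 CPM, were the highest of the 8 groups and 3.00-fold above sgControl (log2 ratio 1.59 ± 0.39), with no overlap. The sgMed12 libraries, at 8.19, 4.07 and 8.23 CPM, overlapped sgControl. Between stages, the sgControl Phase 1 mean was 1.99-fold above that of sgControl LPs (log2 ratio 0.99 ± 1.09), but LP replicate 1 lay among the Phase 1 libraries. Without that library the log2 ratio was 1.76, the highest value that leaving out a single library gave.

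*Siglech* encodes Siglec-H, a sialic-acid-binding receptor that signals through the adaptor DAP12, the product of *Tyrobp*. It lies at chr7:55768178-55778925 on the plus strand (ENSMUSG00000051504). Its level was 5.31, 1.24 and 0 CPM in sgControl LPs of the first experiment, 0, 0 and 1.43 CPM in sgCbfb LPs, 0.705, 7.74 and 2.20 CPM in sgControl Phase 1 cells, and 1.95, 0 and 0 CPM in sgCbfb Phase 1 cells. All 6 sgCbfb libraries had 3 reads or fewer, as did 4 of the 6 sgControl libraries, and the groups overlapped at both stages. In the second experiment it was 2.11, 2.36 and 1.70 CPM (8, 8 and 7 reads) with sgControl and 0.298, 0.536 and 0 CPM (1, 2 and 0 reads) with sgCbfb. These were apart, and the sgCbfb mean was at least 2.52-fold lower. With sgCTCF it was 1.88, 2.51 and 0.462 CPM and with sgMed12 0.565, 1.16 and 2.27 CPM, both overlapping sgControl. At this depth, differences for *Siglech* other than that with sgCbfb in the second experiment were not detectable.

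*Cysltr1* encodes a G-protein-coupled receptor for the cysteinyl leukotrienes. It lies at chrX:106574346-106603679 on the minus strand (ENSMUSG00000052821), where the spans of *Gm5127*, on the opposite strand, and *Gm24622* cover it in part without sharing an exon. In the first experiment it was at 12.98, 12.4 and 22.5 CPM in sgControl LPs and at 36.7, 33.3 and 28.5 CPM in sgCbfb LPs, 2.06-fold higher with no overlap (log2 ratio 1.04 ± 0.54). In Phase 1 cells *Cysltr1* had 33.9, 30.3 and 31.5 CPM with sgControl and 35.7, 46.5 and 42.4 CPM with sgCbfb. These groups were also apart, by a smaller 1.30-fold (0.38 ± 0.21), and sgControl cells at Phase 1 stood above every sgControl LP library (log2 ratio 1.0 ± 0.52). Between the 2 sgCbfb groups, LP and Phase 1 libraries overlapped.

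In the second experiment *Cysltr1* was at 11.6, 14.5 and 12.2 CPM with sgControl and at 37.9, 44.8 and 32.5 CPM with sgCbfb, 3.01-fold higher (log2 ratio 1.59 ± 0.29). The sgCTCF libraries had 22.5, 32.0 and 26.3 CPM, 2.12-fold above sgControl. The sgMed12 libraries had 12.4, 12.5 and 14.8 CPM, within the range of the sgControl libraries but for replicate 3, and the log2 ratio of 0.05 ± 0.22 was smaller than its SD.

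*Pld4* encodes phospholipase D4, an endolysosomal exonuclease of single-stranded nucleic acids that limits what the endosomal receptors can sense. It lies at chr12:112760655-112768990 on the plus strand (ENSMUSG00000052160), with up to 11 exons in a transcript. In LPs of the first experiment it was at 36.0, 30.3 and 31.5 CPM with sgControl and at 52.9, 45.3 and 50.7 CPM with sgCbfb, 1.52-fold higher with no overlap (log2 ratio 0.61 ± 0.17). Phase 1 cells had 72.0, 92.9 and 99.8 CPM with sgControl and 72.6, 83.6 and 79.0 CPM with sgCbfb. The Phase 1 groups overlapped with each other, and both stood above every LP library, 2.71-fold in sgControl and 1.58-fold in sgCbfb cells.

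*Pld4* was higher in all 9 libraries with a targeting sgRNA of the second experiment than in any sgControl library. The sgControl libraries had 19.0, 20.4 and 15.6 CPM, the sgCbfb libraries 42.6, 49.3 and 27.5 CPM, the sgCTCF libraries 46.2, 45.9 and 41.8 CPM and the sgMed12 libraries 41.3, 32.8 and 37.8 CPM. The ratios to sgControl were 2.17-fold, 2.44-fold and 2.04-fold (log2 ratios 1.12 ± 0.45, 1.29 ± 0.21 and 1.03 ± 0.25). The 3 share the sgControl libraries, whose mean of 18.3 ± 2.47 CPM was below the 32.6 ± 3.00 CPM of the sgControl LPs in the first experiment.

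**Figure D1:**
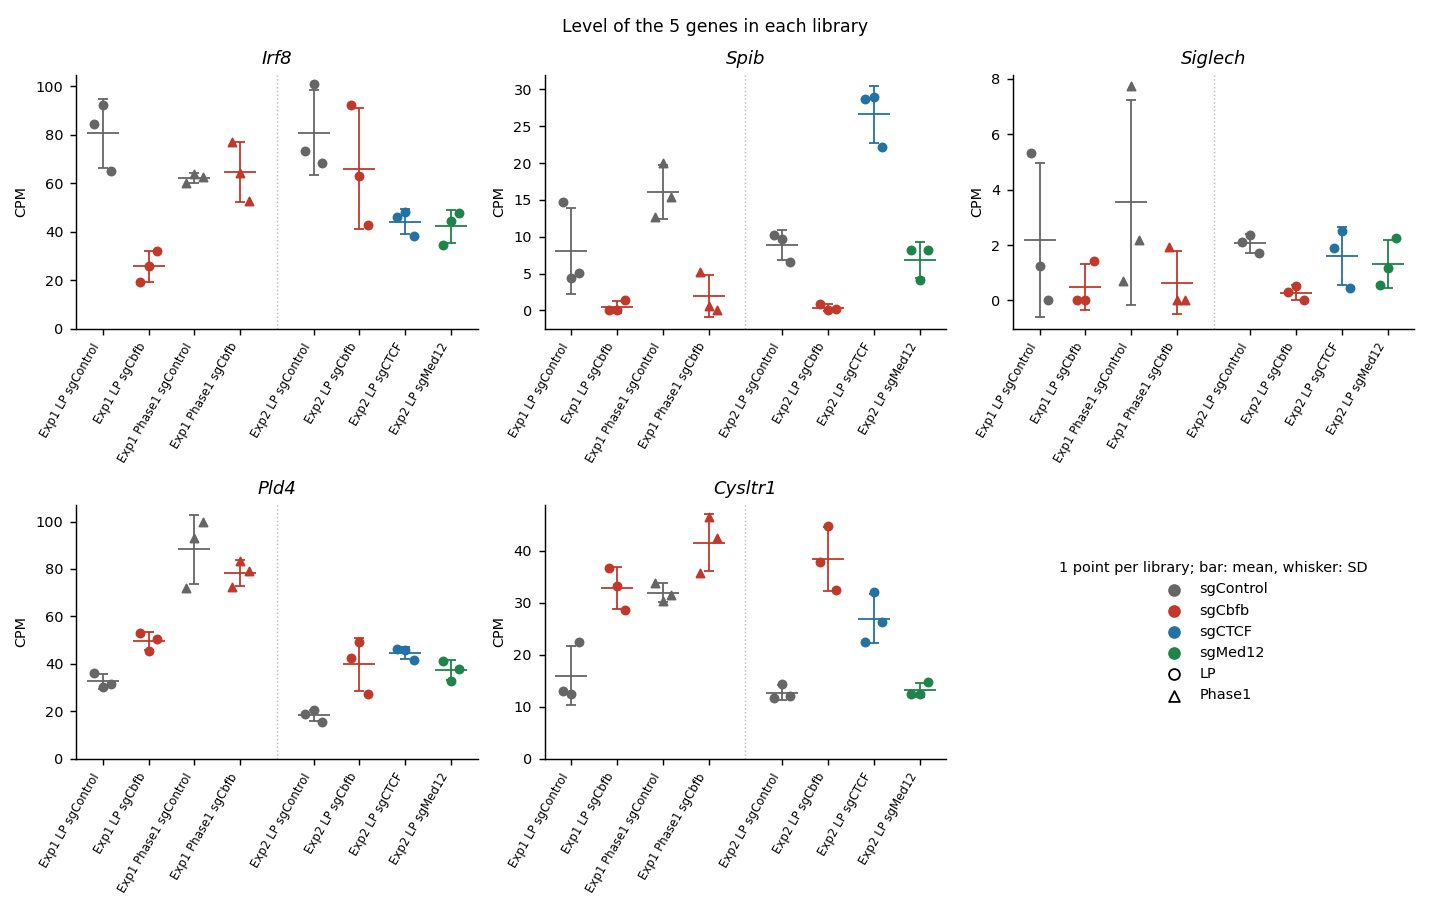
Level of each of the 5 genes in every library, in CPM (1 panel a gene, linear axes), by group; points are libraries, lines the mean of 3 and whiskers the SD, grey for sgControl, red for sgCbfb, blue for sgCTCF and green for sgMed12, with circles for LPs and triangles for Phase 1 cells. *Spib* and *Siglech* lie near 0 in the sgCbfb groups, and *Pld4* is above the sgControl libraries in all 3 targeted groups of the second experiment.

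Set side by side, the comparisons differed in which of the 5 genes moved apart. With sgCbfb in LPs of the first experiment, *Pld4* and *Cysltr1* were higher without overlap, *Irf8* and *Spib* were lower and *Siglech* overlapped. Among all genes tested there, 9.11% were apart and higher and 8.35% apart and lower. In the second experiment *Pld4* and *Cysltr1* were higher, *Spib* and *Siglech* lower and *Irf8* overlapped, where 15.5% of all genes were apart and higher and 15.0% apart and lower. In Phase 1 cells, sgCbfb left *Cysltr1* higher, *Spib* lower and the other 3 overlapping, with 11.7% of all genes apart and higher and 9.28% apart and lower. The sgCTCF libraries were above sgControl for *Spib*, *Pld4* and *Cysltr1* and below it for *Irf8* (16.0% and 15.1% of all genes were apart and higher or lower), and the sgMed12 libraries were above it for *Pld4* and below it for *Irf8* (9.33% and 11.9%). From LP to Phase 1, sgControl cells were apart and higher for *Pld4* and *Cysltr1* and lower for *Irf8* (9.77% and 12.1%), and sgCbfb cells were higher for *Irf8* and *Pld4* (9.19% and 9.74%). Without replicate 3 of sgControl Phase 1 cells, the log2 ratio of sgCbfb to sgControl at Phase 1 was 0.06 for *Irf8*, -3.08 for *Spib*, -0.07 for *Pld4* and 0.37 for *Cysltr1*, and that of Phase 1 to LP in sgControl cells was -0.38 for *Irf8*, 1.02 for *Spib* and 1.34 for *Pld4*. Without replicate 2 of sgMed12, the ratios to sgControl were -0.98 for *Irf8*, -0.11 for *Spib*, 1.11 for *Pld4* and 0.09 for *Cysltr1*. Nothing is read from these counts, since the members were chosen with the values known. All 5 passed the filter on low values in both experiments.

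**Figure D2:**
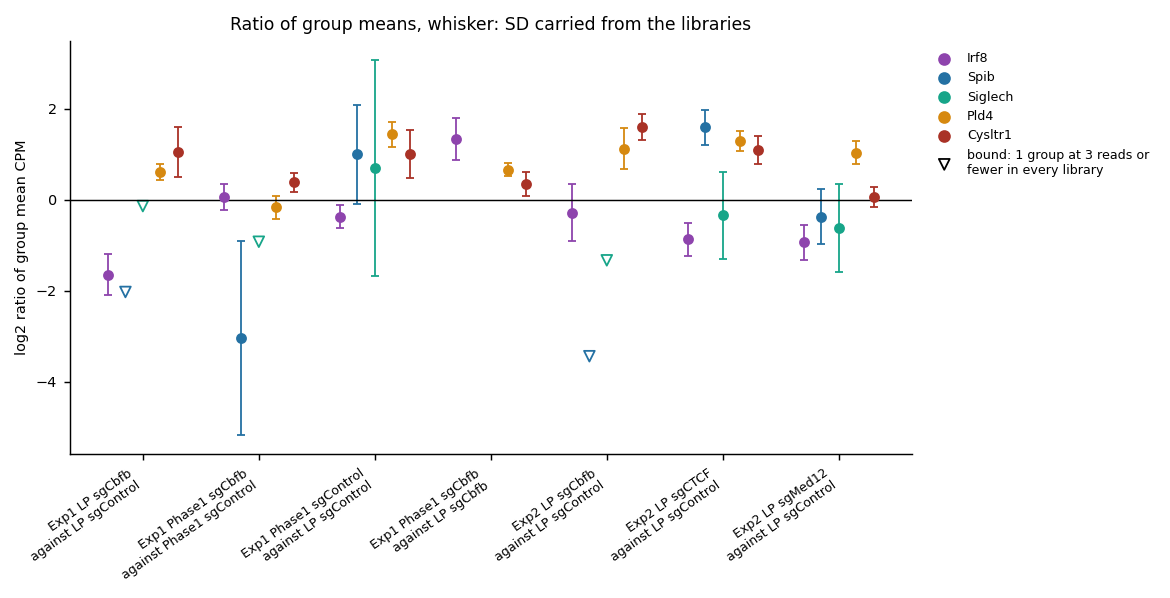
Log2 ratio of the group means (y axis) of the 5 genes in the 7 comparisons; whiskers are the SD carried from the libraries, n = 3 in each group. Open triangles are bounds where 1 group had 3 reads or fewer in every library, so that the ratio lies at or below the triangle; 2 ratios against groups at the floor are not drawn. *Irf8* and *Spib* lie below 0 and *Pld4* and *Cysltr1* above 0 for sgCbfb LPs of the first experiment, and *Spib* is above 0 for sgCTCF.

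Ordered by mean level over the 8 groups, *Spib* ran from sgCTCF (26.6 CPM) and sgControl Phase 1 cells (16.0 CPM), which did not overlap, through the 2 sgControl LP groups and sgMed12, between 8.87 and 6.83 CPM and overlapping in each neighbouring pair, down to the 3 sgCbfb groups at 1.94 CPM or less, of which Phase 1 cells overlapped sgMed12. The 3 highest groups for *Cysltr1* were those with sgCbfb, at 41.5, 38.4 and 32.8 CPM, and each overlapped its neighbour. For *Irf8* the lowest group was sgCbfb LPs of the first experiment (25.7 ± 6.54 CPM), apart from the next, sgMed12 (42.1 ± 6.84 CPM). For *Pld4* the 2 Phase 1 groups were highest, at 88.2 and 78.4 CPM, overlapping each other and apart from the next group, sgCbfb LPs at 49.6 CPM. Levels set across the 2 experiments come from tables scaled separately.

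The 5 genes did not share 1 pattern over the libraries. On log2(CPM + 1), *Spib* and *Siglech* had Pearson's r of 0.791 over the 12 libraries of the first experiment and 0.669 over those of the second, and *Pld4* and *Cysltr1* 0.754 and 0.616. *Irf8* and *Spib* had 0.67 and -0.243, and *Spib* and *Cysltr1* -0.446 and -0.402. The libraries of a group are among these points, so the values describe the groups as much as the libraries. Among the 8612 genes whose mean passed 10 CPM in at least 1 group of both experiments, those most like *Spib*, by the lower of the 2 correlations, were *Hemgn* (0.932 and 0.93), *Trdc* (0.914 and 0.911) and *Cd7* (0.908 and 0.96). *Hemgn* was also among those most like *Siglech* (0.695 and 0.72), with *Klhl30* (0.719 and 0.788) and *Grap2* (0.694 and 0.745). The nearest to *Pld4* were *Smarca2* (0.904 and 0.887), *Hes1* (0.914 and 0.852) and *Chd9* (0.879 and 0.826), and to *Cysltr1* *Tspan13* (0.901 and 0.924), *Agpat3* (0.889 and 0.958) and *Ly6a* (0.848 and 0.892). *Irf8* had weaker likenesses, to *Nudt2* (0.737 and 0.737), *Lztr1* (0.71 and 0.76) and *Synj2bp* (0.66 and 0.705).

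The other genes of pDC biology were read from 6 lists of 74 genes in all, written with earlier results of these data known: pDC transcription factors, surface and effector genes, endosomal sensing, leukotriene synthesis and receptors, Siglecs with their adaptors, and the IRF and Spi families. Of these, 52 were tested in the first experiment and 54 in the second. Genes were tested with limma on log2(CPM + 1), a scale that understates the change of low genes, and calls needed 3 things: adjusted P under 0.05 (Benjamini-Hochberg over all genes tested), group means that differed more than 2-fold, and more than 10 CPM in at least 1 of both means. With sgCbfb in LPs, 2 of 52 were called higher and 4 lower in the first experiment (all genes, 1.10% and 0.597%), and 3 of 54 higher and 6 lower in the second (all genes, 2.67% and 1.65%). In Phase 1 cells 6 rose and 3 fell with sgCbfb (all genes, 1.96% and 1.56%). The sgCTCF comparison called 4 higher and 1 lower (all genes, 1.81% and 0.622%) and the sgMed12 comparison 1 higher and 1 lower (all genes, 0.668% and 0.364%). From LP to Phase 1, 3 were called higher and 4 lower in sgControl cells (all genes, 1.65% and 1.74%), and 5 higher and 2 lower in sgCbfb cells (all genes, 0.740% and 0.453%). The median log2 fold change of the list genes was between -0.07 and 0.13 in these 7 comparisons, beside -0.07 to 0.06 for all genes. The pooled median hides a difference between lists. With sgCbfb in LPs, surface and effector genes had medians of -1.11 (first experiment) and -1.75 (second), and the other lists lay between -0.13 and 0.58. In the other comparisons the median of the surface and effector genes was between -0.48 and 0.21.

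Among the 7 pDC transcription factors, *Bcl11a* fell with sgCbfb in LPs and rose with it in Phase 1 cells. *Bcl11a*, a zinc-finger repressor that lymphoid and dendritic progenitors use, went from 136.3 ± 18.8 to 68.0 ± 14.7 CPM in sgCbfb LPs (log2 fold change -1.0, SE 0.15, adjusted P = 2e-04), and from 221.3 ± 8.99 to 464.4 ± 23.4 CPM at Phase 1 (1.07, adjusted P = 6.2e-05). In LPs of the second experiment it fell from 116.1 ± 27.5 to 57.7 ± 0.929 CPM (-0.97, adjusted P = 7.1e-05). Both LP values lie close to the fold threshold, and the call was lost without sgControl replicate 1 or without sgCbfb replicate 1 or 2 in the first experiment (log2 fold change -0.93 to -0.90) and without sgControl replicate 2 or sgCbfb replicate 1 in the second. *Tcf4*, the factor that defines pDCs, was called in none of the comparisons: it was 214.9 ± 36.5 CPM in sgControl and 235.8 ± 7.25 CPM in sgCbfb LPs, and in the second experiment 194.6 ± 28 CPM with sgControl, 258.6 ± 35 CPM with sgCbfb (adjusted P = 0.022, under the fold threshold), 212.9 ± 15.2 CPM with sgCTCF and 142.5 ± 10.8 CPM with sgMed12 (adjusted P = 0.028, under the fold threshold).

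*Runx2*, which guides pDCs out of the bone marrow, rose with sgCbfb at Phase 1, from 24.1 ± 7.72 to 74.5 ± 11.9 CPM (log2 fold change 1.62, SE 0.24, adjusted P = 0.00013), and was 52.7 ± 13.9 and 47.7 ± 1.75 CPM in LPs of that experiment (adjusted P = 0.94). The second experiment gave *Runx2* levels of 49.97 ± 5.84 CPM in sgControl and 74.1 ± 12.8 CPM in sgCbfb LPs (0.55, adjusted P = 0.025, under the fold threshold), with no overlap. From LP to Phase 1, *Runx2* fell in sgControl cells (-1.11, adjusted P = 0.0055; lost without LP replicate 1 or Phase 1 replicate 3) and *Bcl11a* rose in sgCbfb cells (2.77, adjusted P = 3.8e-11). *Zeb2*, a repressor needed by pDCs and monocytes, was raised by sgCbfb at Phase 1, from 33.2 ± 5.21 to 83.9 ± 16.2 CPM (1.31, adjusted P = 0.00036) and fell with sgCTCF from 47.7 ± 3.66 to 22.5 ± 3.54 CPM (-1.06, adjusted P = 0.00011), a call lost without sgCTCF replicate 3 (-0.95). With sgCbfb in LPs *Zeb2* was 98.8 ± 22.5 against 50.5 ± 9.96 CPM and 93.6 ± 20.2 against 47.7 CPM in the 2 experiments, both under the fold threshold. *Irf7*, the factor that drives type I interferon genes, rose with sgCbfb in the second experiment from 3.44 ± 2.54 to 63.3 ± 31.7 CPM (3.90, adjusted P = 1.7e-08), and was 6.09 ± 2.9 and 10.99 ± 5.6 CPM in the first (adjusted P = 0.71). *Cbfa2t3* and *Ikzf1* were called in no comparison of groups. With sgMed12 limma called 0 of the 7, of which 6 had an unadjusted p under 0.05, and edgeR and DESeq2 also called 0.

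Of the 20 surface and effector genes, 13 were tested in the first experiment and 14 in the second, and 3 of those called with sgCbfb fell in LPs of both. *Ly6d*, a GPI-anchored protein of lymphoid progenitors and pDCs, went from 143.8 ± 24.7 CPM to the floor with sgCbfb in LPs, at least 72.8-fold lower (adjusted P = 1.3e-11), and in the second experiment from 109.9 ± 30.0 to 1.42 ± 1.37 CPM (log2 fold change -5.63, adjusted P = 3.8e-14). *Ccr9*, the chemokine receptor that guides progenitors and pDCs to thymus and gut, fell from 988.5 ± 33.3 to 234.6 ± 20.4 CPM (-2.07, adjusted P = 2.3e-09) and from 534.4 ± 94.0 to 26.9 ± 2.32 CPM (-4.25, adjusted P = 3.8e-16). *Cox6a2*, a cytochrome c oxidase subunit that muscle and pDCs express, fell from 589.1 ± 42.6 to 170.8 ± 12.1 CPM (-1.78, adjusted P = 2.2e-08) and from 534.2 ± 86.3 to 81.2 ± 5.62 CPM (-2.69, adjusted P = 1.5e-15). *Lifr*, the receptor of leukaemia inhibitory factor, fell in the second from 25.9 ± 1.76 to 1.30 ± 0.695 CPM (-3.58, adjusted P = 2.9e-09). *Ly6c2* rose in both, from 15.5 ± 2.73 to 88.1 ± 5.75 CPM (2.44, adjusted P = 6.4e-07) and from 11.2 ± 2.68 to 270.4 ± 36.8 CPM (4.49, adjusted P = 2.5e-13), and it is a monocyte marker as well.

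In Phase 1 cells sgCbfb lowered *Ly6d* from 341.0 ± 112.3 to 33.8 ± 6.63 CPM (log2 fold change -3.25, adjusted P = 7.2e-08) and *Ccr9* from 130.8 ± 18 to 58.0 ± 8.52 CPM (-1.16, adjusted P = 8.4e-06), and raised *Ly6c2* from 8.74 ± 0.837 to 98.4 ± 9.50 CPM (3.35, adjusted P = 2.3e-09). Notch stimulation itself went with lower *Ccr9* (-2.92, adjusted P = 2.5e-12), *Cox6a2* (-1.59, adjusted P = 4.4e-08) and *Lifr* (-2.18, adjusted P = 0.018) and with higher *Ly6d* (1.19, adjusted P = 0.011) in sgControl cells, and *Lair1*, an inhibitory collagen receptor, rose from the floor to 33.1 ± 21.7 CPM, at least 17.9-fold (adjusted P = 1.1e-05). *Lifr* was not called without sgControl LP replicate 1 or 2 or Phase 1 replicate 2, and *Ly6d* not without LP replicate 2 or 3 or Phase 1 replicate 1. In sgCbfb cells, *Lair1* (at least 12.4-fold, adjusted P = 5.2e-05) and *Ly6d* (at least 17.1-fold, adjusted P = 7.1e-09) rose and *Ccr9* (-2.0, adjusted P = 3.8e-09) and *Rpgrip1* (-1.03, adjusted P = 0.016) fell from LP to Phase 1. *Rpgrip1*, which codes for a ciliary protein, was not called without LP replicate 1 or Phase 1 replicate 2 or 3.

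With sgCTCF, *Atp1b1*, a subunit of the sodium pump, rose from 6.02 ± 3.82 to 105.8 ± 16.0 CPM (log2 fold change 4.12, SE 0.38, adjusted P = 5.2e-08) and *Ly6c2* from 11.2 ± 2.68 to 80.0 ± 13.1 CPM (2.74, adjusted P = 2e-08). With sgMed12, *Bst2*, the antiviral surface protein used to stain mouse pDCs, was 413.4, 124.7 and 322.7 CPM against 100.5 ± 8.32 CPM with sgControl (1.34, SE 0.31, adjusted P = 0.013), and *Ly6d* was 52.4 ± 7.70 against 109.9 ± 30.0 CPM (-1.03, adjusted P = 0.023). The order of *Bst2* over these libraries is that of their mitochondrial shares, 13.66%, 8.44% and 11.18%, the low one is the replicate that stands apart, and their part in the call was not tested. Neither gene was called without sgMed12 replicate 1 or without replicate 3, *Bst2* also not without sgControl replicate 3 and *Ly6d* also not without sgControl replicate 1 or 2. *Bst2* was 128.9 ± 39.3 and 59.9 ± 21.8 CPM in sgControl and sgCbfb LPs of the first experiment (adjusted P = 0.06) but 100.5 ± 8.32 and 189.3 ± 119 CPM in the second (adjusted P = 0.14), and passed the test in neither.

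**Figure D3:**
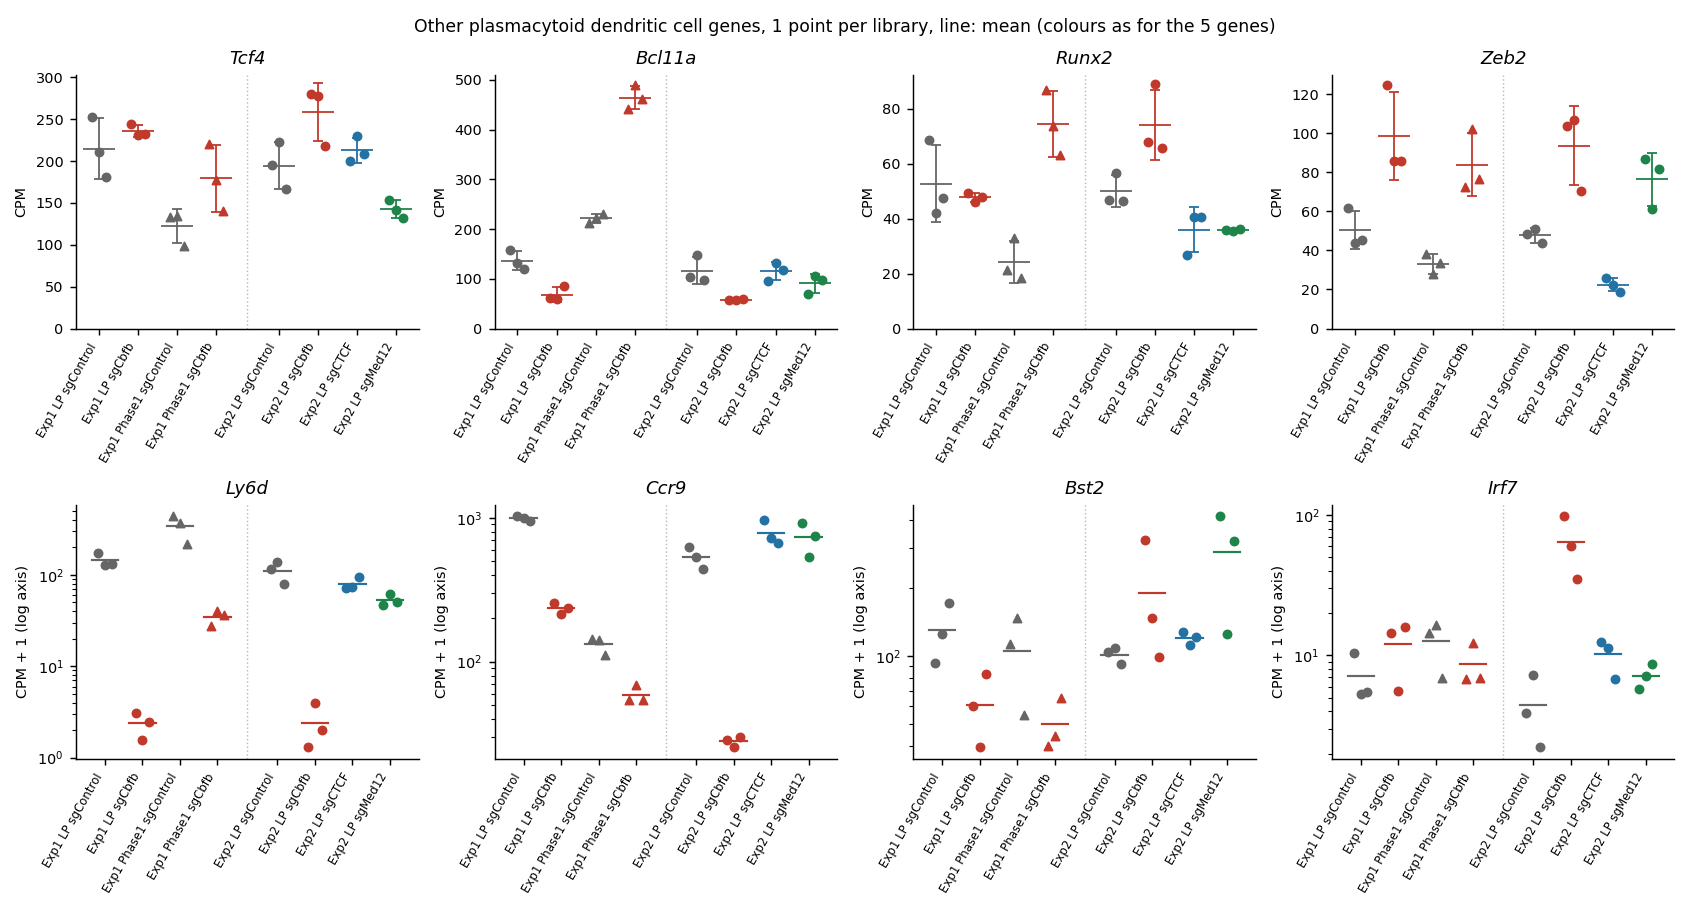
CPM per library of 8 genes of the pDC lists, 1 panel a gene; grey points are sgControl, red sgCbfb, blue sgCTCF and green sgMed12, circles are LPs, triangles Phase 1 cells, and lines the mean of 3 libraries. *Tcf4*, *Bcl11a*, *Runx2* and *Zeb2* are on linear axes from 0, with whiskers for the SD, and *Ly6d*, *Ccr9*, *Bst2* and *Irf7* on log axes of CPM + 1; *Ly6d* and *Ccr9* are low in sgCbfb LPs, and *Bcl11a* is highest in sgCbfb Phase 1 cells.

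The endosomal sensing genes are those through which pDCs detect the nucleic acids that PLD4 degrades. Of 14 tested in each experiment, limma called 0 in LPs with sgCbfb in the first experiment (3 had an unadjusted p under 0.05, and edgeR and DESeq2 also called 0), *Irf7* alone in the second, *Irf5* in Phase 1 cells, and *Pld3*, the relative of *Pld4* with the same kind of nuclease activity, with sgCTCF (12.3 ± 3.07 to 33.3 ± 2.0 CPM, log2 fold change 1.39, adjusted P = 0.00032). At Phase 1 *Irf5* had 9.93 ± 8.7 CPM with sgControl against 32.6 ± 15.7 CPM with sgCbfb (adjusted P = 0.044), and sgControl replicate 3, which stands apart, had none of its reads. Without that library the log2 fold change of *Irf5* was 0.99, and the call was lost in 13 of 22 alternative settings. *Tlr7* lay between 0.930 and 12.9 CPM in all groups without a call, and *Tlr9* was too low to be tested.

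In the IRF and Spi families, of which 9 of 10 genes were tested in each experiment, *Spi1*, the gene of PU.1 and a close relative of *Spib*, was called in no comparison, at 78.0 ± 16.3 CPM in sgControl and 99.99 ± 8.95 CPM in sgCbfb LPs and 118.2 ± 11.2 and 102.6 ± 14.0 CPM in the second experiment. *Spic*, another relative, had 11.7, 10.1 and 18.9 CPM in sgCbfb Phase 1 cells and was at the floor in all other groups of that experiment, at least 6.5-fold above sgControl Phase 1 cells (adjusted P = 6.7e-05). *Irf9* rose with sgCbfb in the second experiment from 37.4 ± 2.58 to 105.4 ± 27.6 CPM (log2 fold change 1.44, adjusted P = 3.7e-07), and *Irf4* rose with sgCTCF from 4.54 ± 1.37 to 17.7 ± 3.35 CPM (1.77, adjusted P = 0.0011).

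The Siglec list, with 7 of 10 genes tested in the first experiment and 6 in the second, had 1 call with sgCbfb in LPs of the first, *Mag*, the Siglec of myelin, from 1.44 ± 1.43 to 12.9 ± 2.0 CPM (log2 fold change 2.64, adjusted P = 0.017; lost without any 1 sgCbfb library and without sgControl replicate 1 or 3), and limma, edgeR and DESeq2 called 0 in the second, where 3 had an unadjusted p under 0.05. From LP to Phase 1, *Siglecf* rose in sgControl cells from the floor to 11.95 ± 6.62 CPM, at least 6.45-fold (adjusted P = 0.00025), and *Cd22*, a B-cell Siglec, in sgCbfb cells from 1.72 ± 2.98 to 10.2 ± 2.97 CPM (adjusted P = 0.038; lost in 9 of 22 alternative settings). *Tyrobp*, whose product carries the signal of Siglec-H, was between 96.8 and 195.4 CPM in the 8 groups and called in none, also where *Siglech* was at the floor. In the leukotriene list, with 5 and 7 of 15 genes tested, *Ltb4r1*, a leukotriene B4 receptor, fell at Phase 1 with sgCbfb, from 14.0 ± 5.69 to 2.68 ± 0.23 CPM (-1.96, adjusted P = 0.024; lost in 6 of 22 alternative settings), and *Ggt5*, an enzyme that converts leukotriene C4 to D4, fell in LPs of the second experiment from 13.8 ± 5.76 to 5.37 ± 1.26 CPM (-1.16, adjusted P = 0.0042; lost without sgControl replicate 2). *Alox5ap*, which presents arachidonic acid to 5-lipoxygenase, passed the adjusted P threshold but not the fold threshold with sgCbfb in LPs of both experiments (0.67, adjusted P = 0.017, and 0.57, adjusted P = 0.047). With sgCTCF *Alox5ap* was lower, at 35.5 ± 5.88 against 67.8 ± 13.9 CPM with sgControl (limma, -0.91, adjusted P = 0.0022, under the fold threshold).

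The effect of sgCbfb differed between LPs and Phase 1 cells for 7 of the 52 list genes, by the interaction in the same limma fit (1.19% of all genes tested). It was more positive in Phase 1 cells for *Spic*, *Ly6d*, *Bcl11a*, *Runx2*, *Cox6a2* and *Ccr9* and more negative for *Cbfa2t3*. *Bcl11a* was called in opposite directions, lower in LPs and higher in Phase 1 cells, with a difference of 2.07 on the log2 scale (SE 0.21, adjusted P = 7.7e-06). For *Ly6d*, *Ccr9* and *Cox6a2* the difference means a smaller fall in Phase 1 cells.

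Markers of other cells that such cultures could hold were read beside the 5 genes. The summed level of 15 monocyte and macrophage markers was 140.0 to 167.6 CPM in sgControl and 649.9 to 729.3 CPM in sgCbfb LPs of the first experiment, 136.9 to 141.9 and 564.3 to 574.5 CPM in Phase 1 cells, and 124.2 to 167.5 CPM with sgControl, 989.3 to 1170.5 CPM with sgCbfb, 276.4 to 313.8 CPM with sgCTCF and 112.7 to 169.5 CPM with sgMed12 in the second. With sgCbfb in LPs, 3 of 12 tested were called higher in the first experiment (all genes, 1.10%) and 4 of 12 in the second (all genes, 2.67%), and in Phase 1 cells 4 were higher and 1, *Ccr2*, lower (all genes, 1.96% and 1.56%). *Mrc1*, the macrophage mannose receptor (4.86 ± 2.65 to 221.1 ± 2.69 CPM in LPs), and *F13a1*, the A chain of factor XIII (11.2 ± 3.06 to 189.6 ± 42.8 CPM), took most of this rise, and *Mpo*, myeloperoxidase, was called in the second experiment. The defining genes *Csf1r* and *Lyz2* had means of 4.57 CPM or less in every group, and *Elane* was at or near 0. *Lyz2* was nevertheless higher with sgCbfb in the second experiment, from 0.985 ± 0.554 to 3.85 ± 1.15 CPM (adjusted P = 0.022, under the level threshold), as was *Cebpb*, from 14.0 ± 2.13 to 23.8 ± 3.19 CPM (adjusted P = 0.031, under the fold threshold), and *Csf1r* was at 0 and 1.58 ± 1.49 CPM (adjusted P = 0.098). With sgCTCF, *Ly6c2* and *Ccr2* were called higher, and with sgMed12 limma, edgeR and DESeq2 called 0 of 12 (3 had an unadjusted p under 0.05). From LP to Phase 1, *Ccr2* rose and *Adgre1* and *F13a1* fell in sgControl cells, and *Mpo* and *F13a1* fell in sgCbfb cells. In sgCbfb LPs the monocyte sum was higher, *Cysltr1* and *Pld4* were higher, and *Spib*, and in the first experiment *Irf8*, lower. In sgCbfb Phase 1 cells the sum and *Cysltr1* were also higher and *Spib* lower, but *Pld4* and *Irf8* overlapped sgControl. With sgCTCF the sum, *Spib*, *Pld4* and *Cysltr1* were higher and *Irf8* lower. With sgMed12 the sum overlapped sgControl, while *Pld4* was higher (37.3 against 18.3 CPM) and *Irf8* lower. The part of these markers in the levels of the 5 genes was not tested.

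The sum of 22 markers of conventional dendritic cells was 566.6 to 925.9 CPM over all libraries, and *Xcr1*, *Clec9a* and *Cd209a* were at 0 in every group. *Flt3*, the receptor of Flt3 ligand on progenitors and dendritic cells, fell from LP to Phase 1 in sgControl cells, from 272.7 ± 15.6 to 36.1 ± 20.4 CPM (log2 fold change -3.06, adjusted P = 1.6e-07), and was higher with sgCbfb than with sgControl in Phase 1 cells (98.5 ± 14.0 CPM, 1.59, adjusted P = 0.00098). *Id2*, the inhibitor of E proteins such as TCF4, was 159.8 ± 21.2 CPM with sgControl, 276.4 ± 5.33 CPM with sgCTCF (adjusted P = 9.6e-05) and 101.2 ± 20.1 CPM with sgMed12 (adjusted P = 0.0029), all under the fold threshold. Of 16 and 13 genes tested, sgControl Phase 1 cells had 5 called higher than LPs, *H2-Eb1*, *H2-Aa*, *H2-Ab1*, *Cd74* and *Itgax*, which serve antigen presentation or mark dendritic cells, and 2 lower, *Flt3* and *Sirpa*. With sgCbfb in Phase 1 cells, *Sirpa* and *Flt3* were higher and *H2-Eb1*, *H2-Aa*, *Cd74* and *Itgax* lower, while in LPs sgCbfb gave 0 calls by limma, edgeR and DESeq2 in the first experiment (3 of 16 with an unadjusted p under 0.05) and *Cd74* lower in the second. With sgCTCF, *Irf4* and *Cd74* were higher, with sgMed12 *Nfil3* was lower, and sgCbfb cells had *Flt3* lower at Phase 1 than in LPs.

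The sum of 13 B-lineage markers was 156.8 to 412.0 CPM, nearly all of it from *Ebf1* transcripts, and *Cd79a* was at 0 in every group. *Pax5* rose with sgCTCF from 8.58 ± 1.77 to 21.98 ± 2.69 CPM (log2 fold change 1.27, adjusted P = 0.0064), *Cd22* was the other call of this list, and *Spib*, which B cells also express, was highest in the same sgCTCF libraries. *Ebf1* went the other way there, at 188.5 ± 17.6 CPM (limma, log2 fold change -0.54, adjusted P = 0.019, under the fold threshold). The sum of the list was 198.3 to 228.3 CPM with sgCTCF and 245.5 to 318.1 CPM with sgControl. In the sgCbfb libraries of the second experiment, where *Spib* was at the floor, *Pax5* was 0.932 ± 0.506 CPM (-2.32, adjusted P = 2.7e-06, under the level threshold) and *Ebf1* 187.6 ± 27.5 against 275.97 ± 38.8 CPM (-0.55, adjusted P = 0.013, under the fold threshold). In sgControl cells of the first experiment, mean *Spib* stood at 8.08 CPM in LPs and 16.0 CPM at Phase 1, with overlap. *Pax5* fell over the same step, from 8.65 ± 2.76 to 1.15 ± 0.399 CPM. The sgCbfb LPs there had *Spib* at or under the floor, but *Pax5* (2.85 to 9.17 CPM) overlapped sgControl LPs (6.49 to 11.8 CPM). The part of B-lineage transcripts in the level of *Spib* was not tested. The 9 stromal markers, which would report OP9 cells in the sort, summed to 2.02 to 43.2 CPM, with *Col3a1* and *Postn* at 0 in every group. limma called 0 of them in all 7 comparisons, where 0 to 4 had an unadjusted p under 0.05, and edgeR and DESeq2 each called 1 with sgCbfb in Phase 1 cells.

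**Figure D4:**
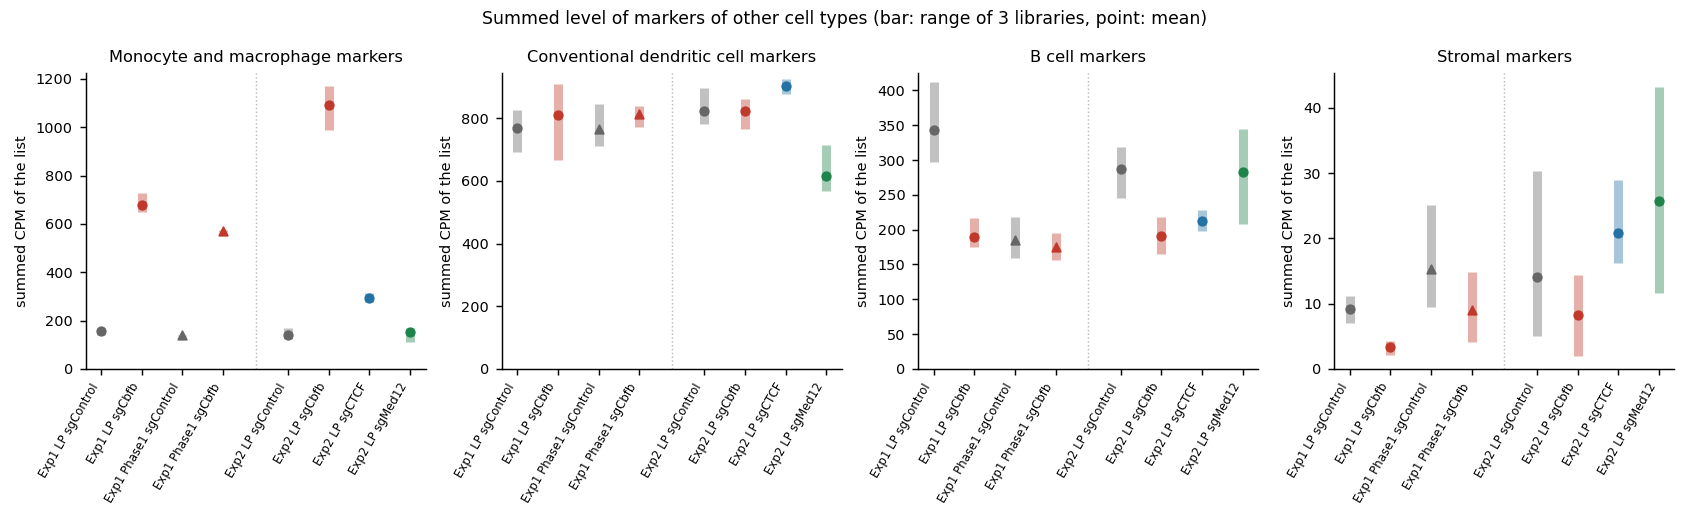
Summed CPM of 4 marker lists (1 panel a list) by group; points are the mean of 3 libraries and bars their range, grey for sgControl, red for sgCbfb, blue for sgCTCF and green for sgMed12, with circles for LPs and triangles for Phase 1 cells. The monocyte and macrophage sum is 649.9 CPM or more in sgCbfb LPs of the first experiment against 167.6 CPM or less in sgControl LPs, and the stromal sum stays at 43.2 CPM or less.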

How the data were processed

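Per the labels and the study's methods, QuantSeq 3′ reads of 24 libraries (3 in each of 8 groups) were trimmed with fastp and aligned with STAR to mm10; the counter, its strand setting and the annotation are not given in the sources used here. The deposited tables name their values TPM, but the steps between values are the same for all genes, so the authors' values are read counts per library total, that is CPM. Dividing by the step gave whole reads (tolerance 0.002 CPM) for 100.0% of the values. From each file, 1 row without an identifier was left out, and 114 symbols on several rows were not used.

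The 5 genes and all gene lists were chosen with earlier results of these data known, and the 5 genes are described without tests. Genes that reached 1 CPM in 3 or more libraries (13239 and 13177) were fitted with limma 3.58.1 (variance trend, log2(CPM + 1), 4 groups in 1 fit per experiment), which was tested on simulated data. Named genes are the 5, their 3 most alike genes, the targeted genes, up to 3 called genes per direction, list and comparison, and *Tcf4*, *Bst2*, *Runx2*, *Id2*, *Flt3*, *Spi1*, *Tyrobp*, *Tlr7* and *Tlr9*. *Upb1*, *Lag3*, *Klk1*, *Cd209d*, *Plac8*, *Ptprs*, *Alox5ap*, *Irf1*, *Irf2*, *Irf3*, *Lyz2*, *Csf1r*, *Cebpb*, *Ebf1* and the markers at or near 0 were named after their values were seen. Alternatives were another pseudocount, filter, fold threshold or scaling, edgeR 4.0.16 and DESeq2 1.42.0 on the recovered reads, the 2 groups compared alone, a replicate block and leaving out single libraries. P-values measure the spread between these libraries only.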

Additional observations from a re-analysis of the deposited data

Results flagged for a closer look

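The effect of sgCbfb differed between Phase 1 cells and LPs of the first experiment, by the interaction of stage and sgRNA in limma, for 8 of the named genes. The difference (Phase 1 minus LP, log2 scale) was 3.57 for *Spic* (adjusted P = 0.0095), 2.72 for *Ly6d* (adjusted P = 0.00053), 2.07 for *Bcl11a* (adjusted P = 7.7e-06), 1.73 for *Runx2* (adjusted P = 0.0087), 1.69 for *Flt3* (adjusted P = 0.041), 1.22 for *Cox6a2* (adjusted P = 0.0012), 0.91 for *Ccr9* (adjusted P = 0.017) and -0.85 for *Cbfa2t3* (adjusted P = 0.036). *Ly6d*, *Bcl11a*, *Runx2* and *Cox6a2* passed in all 20 alternative settings. *Spic*, at 0 reads in LPs, did not pass in 3 of 17, *Ccr9* in 5 of 20, and *Flt3* and *Cbfa2t3* each in 10 of 20. Transcripts of *Cbfb* itself passed the limma test for sgCbfb in LPs but not in Phase 1 cells. The part of this in the differences above was not tested.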

How the results depend on the processing

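The log2 ratios of the 5 genes moved by less than their SD under both other scalings (68 of 68 values). The scale factors of these lay between 0.920 and 1.036, too near 1 to move a ratio of group means by its SD. This count therefore does not measure stability. With 3 libraries a group, leaving out 1 can move a ratio little beside its SD, so that comparison says nothing of stability, and the bound for *Spib* with sgCbfb in LPs of the first experiment ranged from -2.32 to -1.25. Of the counts of list genes called, 72 of 78 were within 1.5 times the reported count, and 88 of 96 with single libraries left out; no named list gene changed direction. Without a fold threshold, 12 list genes were called from LP to Phase 1 in sgControl cells, 19 with sgCbfb in the second experiment, 12 with sgCTCF and 6 with sgMed12, and *Ctcf* itself passed at -0.36 (adjusted P = 0.021). For sgMed12 the count of 2 was 1 with a pseudocount of 0.1 and 0 without a filter on low values. Leaving out single libraries gave counts of 4 to 8 (sgCbfb in LPs, first experiment), 6 to 10 (Phase 1 cells), 5 to 8 (stage, sgControl), 4 to 8 (stage, sgCbfb; 4 without sgCbfb Phase 1 replicate 2 or 3), 4 to 8 (interaction; 4 without sgCbfb Phase 1 replicate 2), 8 to 11 (sgCbfb, second experiment), 5 to 7 (sgCTCF) and 0 to 3 (sgMed12; 0 without sgMed12 replicate 1 or 3, 1 without any 1 sgControl library, 3 without sgMed12 replicate 2). The cause was not tested.

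Same-numbered replicates had correlated deviations of -0.007 to 0.111. In the second experiment each of these, 0.025 to 0.111, was above the largest correlation with other numbers in its comparison, at most 0.041. This held for only some of them in the first experiment. The main fit did not take the numbers as pairs, and a replicate block was run as an alternative. With a replicate block the counts were 7, 9, 7 and 7 in the first experiment (where *Lifr* joined with sgCbfb in LPs), 7 for the interaction, and 9, 5 and 2 in the second. *Cbfb* gave -1.09, -0.27 and -1.23, *Ctcf* -0.36 and *Med12* 0.30 with the block. The lower depth of the first experiment limits *Siglech* and *Spib* most, at 25 reads or fewer in an LP library.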

Other observations

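In sgCbfb LPs of the second experiment, 3 interferon-related genes had the same order of libraries as *Irf8*. *Irf8* had 92.1, 63.0 and 42.6 CPM in replicates 1, 2 and 3, *Irf7* 96.9, 59.0 and 34.0 CPM, *Irf9* 124.9, 117.5 and 73.8 CPM and *Bst2* 324.3, 145.6 and 98.0 CPM, with replicate 1 highest and replicate 3 lowest for all 4. *Irf1*, *Irf2* and *Irf3* did not follow this order, with 80.5, 93.0 and 70.5 CPM, 192.6, 221.8 and 215.4 CPM, and 37.0, 32.2 and 40.1 CPM. The 4 genes were picked after their values were seen, and the order was not tested. The share of all genes with this order is not given, so nothing is read from it.

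*Ebf1* transcripts were read in every group of these *Ebf1*-deficient cells, at 333.7 ± 60.9 CPM in sgControl and 180.5 ± 22.1 CPM in sgCbfb LPs of the first experiment and at 275.97 ± 38.8 and 187.6 ± 27.5 CPM in the second. A 3′ read does not show whether a transcript carries the deficient allele.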
